A study of Mus musculus with 16 samples.

Results

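The comparison asks where the effect of the Pts-R15C-ki allele on transcript signal differs between liver and brain. It uses all 16 arrays of the series, 4 from wild-type brain, 4 from homozygous brain, 4 from wild-type liver and 4 from homozygous liver. The quantity is the change by genotype in liver (homozygous over wild type, log2) minus the same change in brain. The mice were C57BL/6J males aged 17 weeks, the homozygous ones carrying the R15C change in both copies of Pts and the wild-type ones in neither. The animal identifiers showed that each of the 8 mice gave 1 brain and 1 liver array, so each mouse has its own liver minus brain value, and 4 homozygous mice were compared with 4 wild-type mice. The labels name whole brain and liver only, with no region, sampling hour, feeding state or litter, so the p-values below measure the spread between these mice. Of 25697 probes, 10492 (7391 named genes, with 590 probes unnamed) were detected on at least 4 of 8 arrays in each tissue and were tested.

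Pts encodes pyruvoyl-tetrahydropterin synthase, an enzyme on the path from GTP to tetrahydrobiopterin. Tetrahydrobiopterin is the cofactor of phenylalanine hydroxylase, which clears phenylalanine in liver, of the tyrosine and tryptophan hydroxylases, which make monoamine transmitters in brain, and of the nitric oxide synthases. The same enzyme defect therefore meets different dependent reactions in the 2 tissues, and the submitters' title names a mild defect of this synthesis and the distribution of fat.

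Tissue labels held against cell type markers. Of 10 neuron markers, 7 were detected on all brain arrays and 1 on all liver arrays, and of 12 hepatocyte markers, 10 were detected on all liver arrays and 2 on all brain arrays. The livers of wild-type mice 1 and 2 stood apart. On the first principal component of the liver arrays (60.4% of the variance) they lay at -38.2 and -40.4, against 3.26 to 17.9 for the other 6 mice. On the first component of the liver minus brain values (39.6%) they lay at -36.1 and -42.6, against 4.18 to 18.1. They are called the outlying mice below. Where leaving both out turned the sign of a named difference or list median, or moved it by over 1.5 times, the value without them is given beside it. Brain arrays fell into 4 brighter ones (mice 1 and 3 of the wild type, 1 and 2 of the homozygous) and 4 dimmer ones.

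Liver and brain differed in the genotype effect at few single probes. With limma and Benjamini-Hochberg adjustment, 3 of 10492 probes passed an adjusted p of 0.05 (0.0286%), of which 2 were more positive in liver (0.0191%) and 1 more negative (0.00953%). At an unadjusted p under 0.05 there were 1244 (11.9%), 603 higher (5.75%) and 641 lower (6.11%). The liver minus brain values of the 4 homozygous mice lay entirely above or entirely below those of the 4 wild-type mice for 649 probes (6.19%), above for 301 (2.87%) and below for 348 (3.32%). The median difference was 0.01. On the liver side, 77 of the same probes passed in a fit of the liver arrays alone (0.734%), and on the brain side 2 passed in a fit of the brain arrays alone (0.0191%). Over every probe detected in the tissue these counts were 108 of 11955 in liver (0.903%) and 2 of 13862 in brain (0.0144%).

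With all mice, the size of change lay mostly in liver. The median size of the log2 change by genotype was 0.17 in liver and 0.080 in brain, while the median SD within a genotype was 0.192 in liver and 0.204 in brain. Liver had the larger change at 7408 probes (70.6%). Among the 1244 probes with an unadjusted p under 0.05 for the difference, liver had the larger change at 1128 and brain at 116. A difference beyond 1 on the log2 scale was read at 163 probes, with the larger change in liver at 158 of them and in brain at 5. These sizes and counts by tissue are given with all mice only, so the part of wild-type mice 1 and 2 in them was not tested. Without those 2 mice, the number at an unadjusted p under 0.05 was 582 (5.55%). That share is near the 0.05 that the threshold passes where nothing differs. With fewer wild-type mice the fit can also detect less, so the share does not show that nothing differs. The median size of the difference was then 0.157 in place of 0.186.

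The count of 3 depended on single mice. It was 0 without wild-type mouse 1 and 0 without homozygous mouse 2, 3 or 4. It was 1 without wild-type mouse 2, 1 without wild-type mouse 4, 5 without homozygous mouse 1 and 39 without wild-type mouse 3. Without wild-type mice 1 and 2 together, 1 probe passed, that of Fxyd6 at 1.70 (adjusted p = 0.0457, limma). A fit that ignored which arrays came from the same mouse gave 8, among them the same 3.

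**Figure D1:**
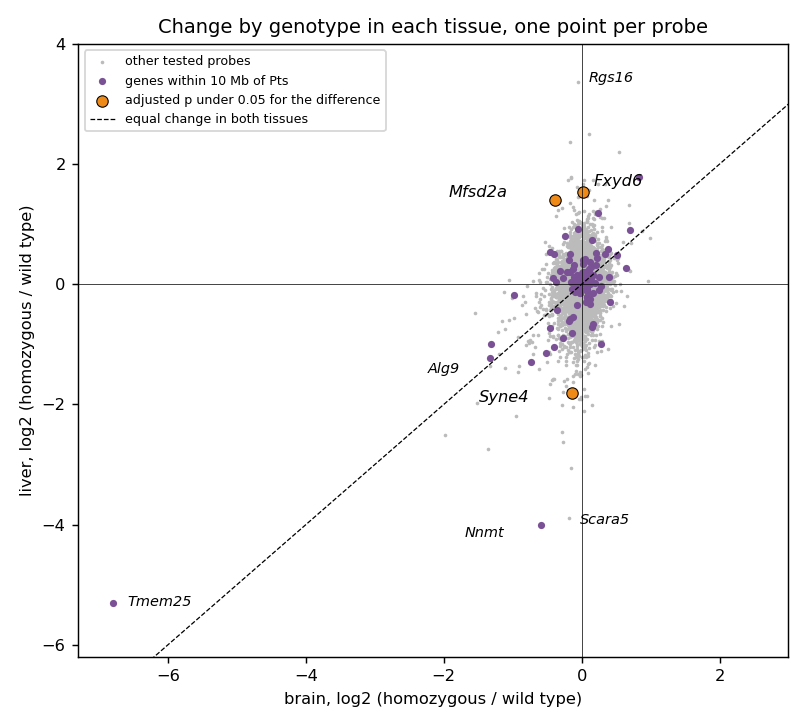
Change by genotype in brain (x axis) and liver (y axis), log2 of homozygous over wild type, 1 point for each of 10492 probes. Orange points are the 3 probes whose difference between tissues passed, purple points are genes within 10 Mb of Pts, and the dashed line marks equal change. The cloud is taller than it is wide, and 1 probe of Tmem25 lies far down in both tissues.

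Fxyd6 encodes a small membrane protein that regulates the sodium pump and is abundant in brain. Its log2 liver signal was 5.31, 5.94, 5.34 and 5.39 in wild-type mice 1 to 4 and 6.76, 7.14, 7.14 and 7.04 in homozygous mice 1 to 4. In brain the same mice read 11.54, 11.86, 11.77 and 11.90, and 11.71, 11.78, 11.84 and 11.85. The lowest homozygous liver exceeded the highest wild-type one, and the brains of both genotypes overlapped. The difference between tissues was 1.50 (SE 0.17, 95% interval 1.12 to 1.88, adjusted p = 0.0172), a 2.83-fold ratio, made of 1.53 in liver and 0.03 in brain. The gene lies 5.14 Mb from Pts on chromosome 9.

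Mfsd2a encodes the transporter that carries lysophosphatidylcholine with docosahexaenoic acid across the blood-brain barrier, and in mouse liver it is known to be induced by fasting. Liver signal was 8.97, 8.99, 8.44 and 8.48 in wild-type mice and 9.92, 10.31, 10.09 and 10.13 in homozygous mice. Brain signal of Mfsd2a was 9.46, 9.91, 8.69 and 8.97 in wild-type mice and 8.67, 8.62, 9.07 and 9.14 in homozygous mice. Liver minus brain values were -0.49, -0.92, -0.26 and -0.50 in wild-type mice against 1.25, 1.70, 1.02 and 0.99 in homozygous mice. The tissues were normalized apart, so these values compare genotypes, and their sign does not rank liver against brain. The difference was 1.78 (SE 0.21, 95% interval 1.32 to 2.24, adjusted p = 0.0172), a 3.44-fold ratio, from 1.40 in liver and -0.39 in brain. Without wild-type mice 1 and 2 it was 1.62 and did not pass (adjusted p = 0.328).

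Syne4 encodes nesprin-4, an outer nuclear membrane protein that links the nucleus to kinesin. Its liver signal was 7.13, 7.58, 6.96 and 6.67 in wild-type mice and 5.29, 5.12, 5.46 and 5.22 in homozygous mice. Its brain signal was 6.65, 7.13, 6.84 and 6.94 in wild-type mice and 6.45, 6.70, 6.87 and 6.97 in homozygous mice. The homozygous livers all lay below the wild-type livers and the brains overlapped. The difference was -1.67 (SE 0.21, 95% interval -2.13 to -1.21, adjusted p = 0.0229), a ratio 3.18-fold lower, from -1.81 in liver and -0.14 in brain. It was -1.40 without wild-type mice 1 and 2 and did not pass (adjusted p = 0.417).

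The same 3 genes were read in the brighter and the dimmer brains apart. The difference of Fxyd6 was 1.54 within the 4 mice with brighter brain arrays and 1.47 within the other 4, that of Mfsd2a 1.85 and 1.71, and that of Syne4 -1.66 and -1.68. Nothing passed within either set of 4 mice (smallest adjusted p = 0.782 and 0.129). On the authors' own normalized values the 3 differences were 0.72, 1.34 and -0.80, and none passed (adjusted p = 0.0665, 0.0524 and 0.0805).

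**Figure D2:**
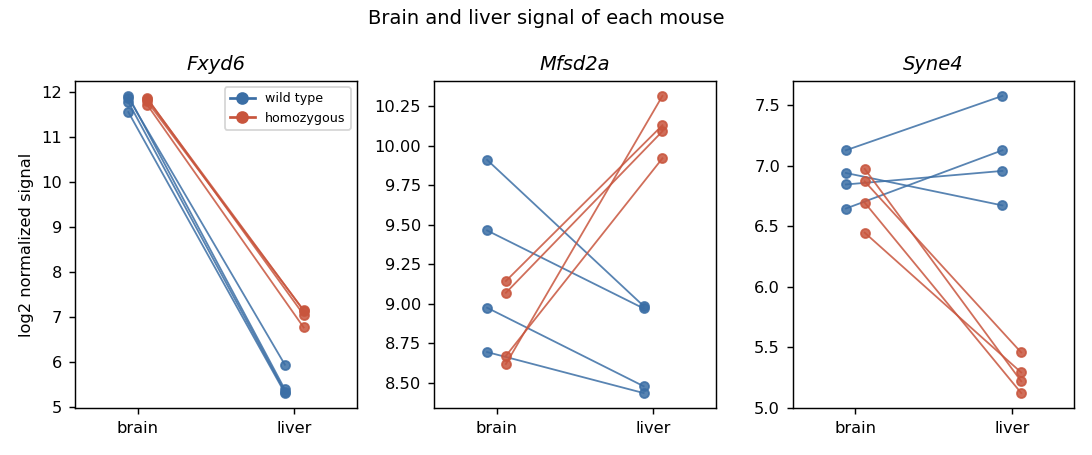
Log2 normalized signal of Fxyd6, Mfsd2a and Syne4 in brain and liver, with a line for each mouse (blue wild type, red homozygous, 4 mice each). The lines of the genotypes meet in brain and part in liver, upward in homozygous mice for Fxyd6 and Mfsd2a and downward for Syne4.

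The stretches before the start of these 3 genes are shown because theirs were the differences that passed. Each is the 250 bases before the RefSeq start (assembly GRCm38.p6), written 5′ to 3′ along the gene. Capitals mark a match to 1 of 4 motifs on either strand. The motifs were the E-box CACGTG (in 6.02% of 32851 RefSeq windows of this length), the D-box TTATGNAA (3.07%), the ROR half-site AGGTCA (14%) and the cAMP response element TGACGTCA (1.55%).
Fxyd6, chr9:45369935-45370184, plus strand: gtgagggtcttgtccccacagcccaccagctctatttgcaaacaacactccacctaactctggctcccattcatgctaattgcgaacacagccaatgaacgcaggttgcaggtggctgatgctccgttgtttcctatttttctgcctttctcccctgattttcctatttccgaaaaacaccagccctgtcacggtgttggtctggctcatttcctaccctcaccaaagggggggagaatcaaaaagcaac
Mfsd2a, chr4:122961189-122961438, minus strand: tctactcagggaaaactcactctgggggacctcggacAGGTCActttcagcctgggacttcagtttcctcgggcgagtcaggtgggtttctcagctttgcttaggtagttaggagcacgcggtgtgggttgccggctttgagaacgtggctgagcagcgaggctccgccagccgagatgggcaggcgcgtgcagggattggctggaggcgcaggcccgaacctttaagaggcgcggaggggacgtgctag
Syne4, chr7:30314566-30314815, plus strand: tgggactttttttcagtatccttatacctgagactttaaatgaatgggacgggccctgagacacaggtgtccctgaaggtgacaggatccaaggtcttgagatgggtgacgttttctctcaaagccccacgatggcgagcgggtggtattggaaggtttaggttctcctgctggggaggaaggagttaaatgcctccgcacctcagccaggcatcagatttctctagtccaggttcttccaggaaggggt
The window of Mfsd2a held 1 ROR half-site, which starts 213 bases before the gene's start. None of the 4 motifs was found in the windows of Fxyd6 and Syne4. A match is a description of these letters and not evidence that a factor binds.

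The 17 genes next in rank did not pass, with adjusted p from 0.0678 to 0.162 in limma. Each gene is ranked by its tested probe with the smallest p. That was 1 of 3 probes for Ctps, Mcam and Nos3 and 1 of 2 for Creld2. The other probes of Ctps, Mcam and Creld2 are not given here, so their values below are those of single probes. Liver had the larger change for all 20 genes in rank, against 70.6% of all probes. In liver alone 14 of the 20 passed (0.734% of all probes), and in brain alone 0 did (0.0191%). The rank rests on the difference, which contains the liver change, so these counts are not separate evidence. Slco1a4, an organic anion transporter of liver and the blood-brain barrier, read 1.06 (SE 0.16), with 1.23 in liver and 0.17 in brain. Fabp5, a fatty acid binding protein, read -1.92 (SE 0.31), though it was detected on only 1 of 4 homozygous livers. Pla2g6, a phospholipase A2, read 0.73 (SE 0.15). Ctps, which makes CTP, read -1.29 (SE 0.23), and Nnmt, which methylates nicotinamide, read -3.42 (SE 0.68), from -4.01 in liver and -0.59 in brain, where 1 of 4 homozygous mice was detected.

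The 2 beta tubulins in rank pointed the same way. Tubb2b in liver was 10.34, 10.17, 9.37 and 10.07 in wild-type mice and 7.97, 8.68, 7.80 and 8.54 in homozygous mice, while in brain it lay between 11.21 and 11.51 in all 8. Its difference was -1.78 (SE 0.27, adjusted p = 0.0678), and that of Tubb6 was -1.86 (SE 0.31, adjusted p = 0.114). Tubb6 livers read 6.74 to 8.85 in wild-type mice and 5.79 to 6.22 in homozygous mice. The livers did not overlap between genotypes for either gene.

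Mcam, an adhesion molecule of endothelium, read -1.28 (SE 0.19, adjusted p = 0.0678), from -0.99 in liver and 0.28 in brain, with 2 of 4 homozygous livers detected. Ccm2l, a paralogue of the vascular gene Ccm2, read 1.02 (SE 0.18). Nos3, the endothelial nitric oxide synthase and a tetrahydrobiopterin-dependent enzyme, read -1.30 (SE 0.23, adjusted p = 0.131) on 1 of 3 tested probes. On its brightest probe it read -0.64 (SE 0.30), or -0.39 without the outlying mice. The remaining Nos3 probe is not given here. The scavenger receptor Scara5 read -3.72 (SE 0.68), or -2.43 without the outlying mice. Wild-type livers gave 10.65, 10.78, 6.82 and 8.51 and homozygous livers 4.81 to 5.96, so wild-type mice 1 and 2 were the highest.

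Rgs16, a regulator of G protein signalling, read 3.42 (SE 0.63, adjusted p = 0.133). Wild-type livers gave 5.45, 4.92, 6.71 and 6.94 for Rgs16 and homozygous livers 8.68, 8.67, 11.08 and 9.07, with no overlap. Slc17a8, a vesicular glutamate transporter, read 1.93 (SE 0.36). Ntrk2, the receptor of brain-derived neurotrophic factor, read 1.09 (SE 0.19) but was not well above background on any wild-type liver, so its liver side is a bound of at least 1.72-fold. Creld2, an endoplasmic reticulum stress gene, read -1.17 (SE 0.23), Nfil3, a clock output repressor, -1.45 (SE 0.29), and Ddit4, an inhibitor of mTORC1, -1.01 (SE 0.20).

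Genes whose larger change lay in brain were rare among large differences. The 5 probes beyond 1 with the larger change in brain, named after their values were seen, were those of Stard5, Tmem25, Ccl9, Plin4 and Xlr4a, and none passed. Without the outlying mice none of the 5 stayed beyond 1. The same count is not given for the probes with the larger change in liver, among which Dbp also came within 1. Ccl9 read 1.12 (SE 0.34), with 1 of 4 homozygous brains detected, and Xlr4a read 1.01 (SE 0.54). They read 0.67 and 0.52 without the outlying mice. Stard5, a sterol carrier, read 1.03 (SE 0.23, adjusted p = 0.183), with 0.50 in liver and -0.52 in brain, and 0.64 without the outlying mice. Its brain signal was 5.95, 6.04, 5.86 and 5.75 in wild-type mice and 5.45, 5.46, 5.09 and 5.51 in homozygous mice, which did not overlap. Plin4, a lipid droplet coat protein induced by glucocorticoids, read 1.06 (SE 0.51) with -1.54 in brain, and 0.15 without the outlying mice. In brain wild-type mice 1 and 2 stood at 8.12 and 8.78, against 5.20 to 5.93 in the other 6 mice.

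Pts itself was measured with 2 probes. Liver minus brain on the brighter probe was 0.50 ± 0.27 (SD, n = 4) in wild-type mice and 0.69 ± 0.28 in homozygous mice. The difference was 0.20 (95% interval -0.24 to 0.63, exact permutation p = 0.371, two-sided over 8 mice), from 0.58 in liver and 0.39 in brain. On the dimmer probe it was 0.21 (95% interval -0.47 to 0.88, exact permutation p = 0.629). The smallest p that 4 against 4 mice allow is 0.0286. A difference between tissues in Pts signal was not detectable, and the intervals still allow up to 0.63 and 0.88. The probes read 0.04 and -0.07 without the outlying mice.

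Tetrahydrobiopterin synthesis and recycling was tested with 7 genes, Pts included, and all 7 lay above 0 (51.6% of all probes did), with a median of 0.07 and 0 at an unadjusted p under 0.05 (11.9% of all probes). Without the outlying mice the median was 0.04, and Qdpr, which recycles the cofactor, at -0.36 and Spr at -0.11 lay below 0. Gch1, the GTP cyclohydrolase that starts the path, read 0.00 (95% interval -0.45 to 0.45), or 0.04 without the outlying mice, and Spr, sepiapterin reductase, which ends it, read 0.05 (95% interval -0.33 to 0.44). The carbonyl reductase Cbr1, at 0.39 (95% interval -0.14 to 0.91), was the highest, with 0.07 without the outlying mice. Of the 7 dependent enzymes on the array, only Nos3 met the detection rule in both tissues.

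Within 10 Mb of Pts on chromosome 9, 110 probes of 86 genes were tested. Of these 1 passed for the difference (Fxyd6), 26 (23.6%) had an unadjusted p under 0.05 against 11.9% of all probes, and 18 (16.4%) did not overlap between genotypes against 6.19%. The median size of change was 0.21 in liver and 0.12 in brain.

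Tmem25, a membrane protein of the immunoglobulin superfamily, was read with 3 probes. On 1 probe its liver signal was 8.76, 8.28, 10.80 and 10.61 in wild-type mice and 4.20, 4.20, 4.29 and 4.50 in homozygous mice, and its brain signal was 10.76 to 11.50 against 4.28 to 4.42. No homozygous array was well above background, so the signal of this probe was at least 30.6-fold lower in liver (adjusted p = 0.00778) and at least 77.8-fold lower in brain (adjusted p = 7.32e-09). The fitted difference of 1.48 (adjusted p = 0.253), or 0.60 without the outlying mice, sets 1 bound against the other and is not a measured difference. The other 2 probes of Tmem25 were not lower in that way. They read 0.50 and 0.40 in liver and -0.40 and -0.18 in brain, none past the threshold. Their differences were 0.90 and 0.58, or 0.45 and 0.23 without the outlying mice.

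Alg9, a mannosyltransferase of N-glycan assembly, also read differently by probe. On 1 of its 3 probes it fell in liver by 1.23 (adjusted p = 0.00852), with 1 of 4 homozygous livers detected. On the same probe no homozygous brain was well above background, so brain was at least 2.08-fold lower (adjusted p = 0.00389). The fitted difference of 0.11 (0.07 without the outlying mice) sets the liver value against that bound and is not a measured difference, and its sign turned in 4 other settings. The probes detected on all 16 arrays fell in liver by 0.90 and 0.60 (adjusted p = 0.0289 and 0.0334) and read -0.27 and -0.19 in brain. Their differences were -0.63 (SE 0.17), where the mice of the genotypes did not overlap, and -0.42 (SE 0.20), where they did, and neither passed.

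Of the other genes near Pts that passed in liver, H2ax, a histone of DNA repair, read -1.29 in liver and -0.73 in brain, and Atm, a DNA damage kinase, read -0.99 and -1.32. Atm was detected on 2 of 4 homozygous arrays in each tissue. Sorl1, a sorting receptor, read 1.79 and 0.83, with 1 of 4 wild-type livers detected. The intervals of the difference were -1.15 to 0.04 for H2ax, -0.28 to 0.93 for Atm and 0.30 to 1.62 for Sorl1, none of which passed. For H2ax the difference was -0.55, or -0.12 without the outlying mice. Il18, a cytokine gene next to Pts, read 1.19 in liver and 0.24 in brain, a difference of 0.95 (SE 0.20, adjusted p = 0.164). Pkm, a pyruvate kinase, read -1.04 and -0.41. The chaperone gene Dnaja4 read -1.14 and -0.52, with 3 of 4 homozygous livers detected. Trappc4, of vesicle tethering, read -0.54 and -0.57 in liver and -0.13 and -0.17 in brain on 2 probes, with differences of -0.41 and -0.41.

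**Figure D3:**
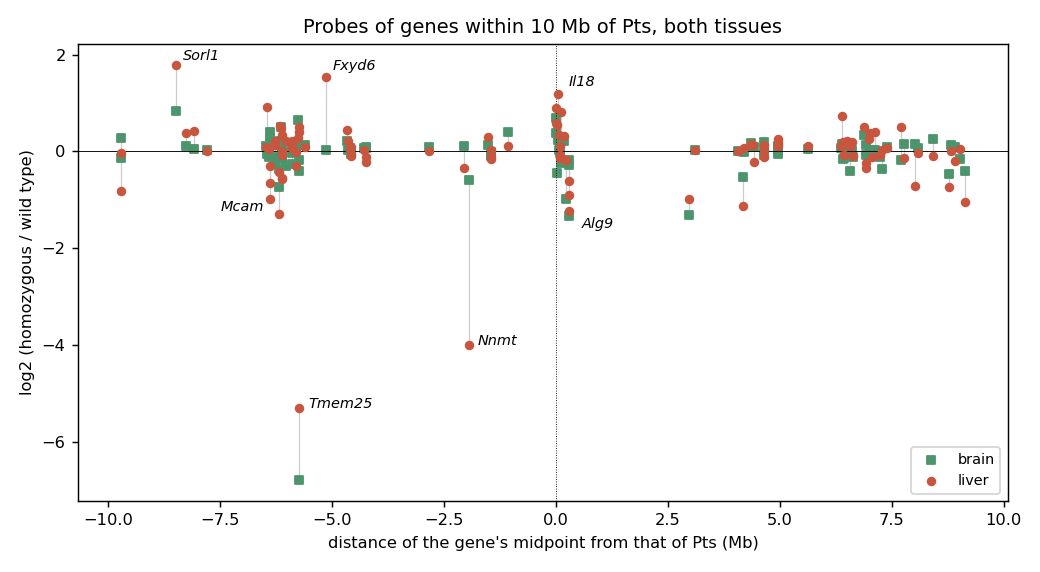
Change by genotype, log2 of homozygous over wild type, in brain (green squares) and liver (red circles) for 110 probes of genes within 10 Mb of Pts, by distance from Pts. Grey lines join the 2 tissues of a probe. 1 probe of Tmem25 is low in both, Fxyd6 reads 1.53 in liver and 0.03 in brain, and Nnmt reads -4.01 in liver and -0.59 in brain.

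Clock genes were read next, from Arntl and Nfil3 below -1 to Dbp above 2. In liver, ARNTL with CLOCK drives E-box genes such as Dbp and Nr1d1, the product of Nr1d1 represses Arntl and Nfil3, and DBP and NFIL3 act in opposite ways on D-box genes. Of 12 core clock genes tested, 3 were higher (5.75% of all probes were) and 1 lower (6.11%) at an unadjusted p under 0.05, with a median of 0.19. Of 4 clock output genes 2 were higher and 1 lower, against the same 5.75% and 6.11%, with a median of 0.36. Across both lists 0 passed the adjusted threshold. Except for Dbp, Nfil3 and Arntl, the genes of both lists below were named after their values were seen.

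Dbp was the highest of them. Its liver signal was 7.44, 7.78, 10.98 and 10.36 in wild-type mice and 11.70, 11.56, 12.01 and 11.29 in homozygous mice, while its brain signal lay between 10.80 and 11.41 in all 8. Wild-type mice 1 and 2 were low in liver and level with the others in brain. The difference of Dbp was 2.39 (SE 0.64, adjusted p = 0.249), from 2.50 in liver and 0.11 in brain. It was 0.96 without the outlying mice.

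Other clock genes stood on both sides of 0. Tef, a relative of Dbp, read 0.99 (SE 0.34), Nr1d1 1.02 (SE 0.44), Per3 0.82 (SE 0.25) and Cry2 0.69 (SE 0.23). They read 0.48, 0.29, 0.41 and 0.44 without those mice. Lowest stood Nfil3 at -1.45 (SE 0.29, adjusted p = 0.162) and Arntl at -1.22 (SE 0.28, adjusted p = 0.187). Nfil3 in liver was 11.23, 11.44, 10.06 and 9.95 in wild-type mice and 9.16, 9.34, 8.87 and 9.32 in homozygous mice, with brain between 8.14 and 9.00. Arntl in liver was 6.82, 6.85, 5.86 and 6.93 against 5.07, 5.40, 4.91 and 5.98. Homozygous livers lay below all wild-type livers for Nfil3, and overlapped for Arntl in that 1 homozygous liver stood above wild-type mouse 3. With all mice, the other tested genes of both lists had an unadjusted p of 0.05 or more in limma. Per2 read 0.52, Nr1d2 0.37, Rora 0.28, Csnk1e 0.09, Per1 -0.02, Ciart -0.03, Csnk1d -0.06, Bhlhe40 -0.27 and Clock -0.40. In that order they read -0.10, 0.16, 0.47, 0.0037, 0.41, -0.12, 0.14, -0.35 and -0.27 without the outlying mice. The median of the output genes without the outlying mice was 0.07, with 2 at an unadjusted p under 0.05, and that of the core genes 0.15, with 2.

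Promoters of Dbp and Nfil3, the output genes at opposite ends, are shown over the same 250 bases, with the same motifs in capitals.
Dbp, chr7:45704997-45705246, plus strand: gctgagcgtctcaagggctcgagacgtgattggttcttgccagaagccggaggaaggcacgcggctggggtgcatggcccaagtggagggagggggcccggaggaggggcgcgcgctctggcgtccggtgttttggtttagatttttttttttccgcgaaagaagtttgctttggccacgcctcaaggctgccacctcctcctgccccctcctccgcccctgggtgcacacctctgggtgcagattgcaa
Nfil3, chr13:52981040-52981289, minus strand: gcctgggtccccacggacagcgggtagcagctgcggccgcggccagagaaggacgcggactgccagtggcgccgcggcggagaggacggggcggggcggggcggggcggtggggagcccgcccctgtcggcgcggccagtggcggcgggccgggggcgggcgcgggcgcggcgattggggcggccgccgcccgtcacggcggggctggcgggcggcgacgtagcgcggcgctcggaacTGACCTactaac
Nfil3 held 1 ROR half-site, read on the reverse strand and starting 12 bases before the gene's start, and Dbp held no match in this window. The windows of Arntl and Nr1d1 were searched for the same motifs and are not printed. Neither held a match to any of them, the ROR half-site included.

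**Figure D4:**
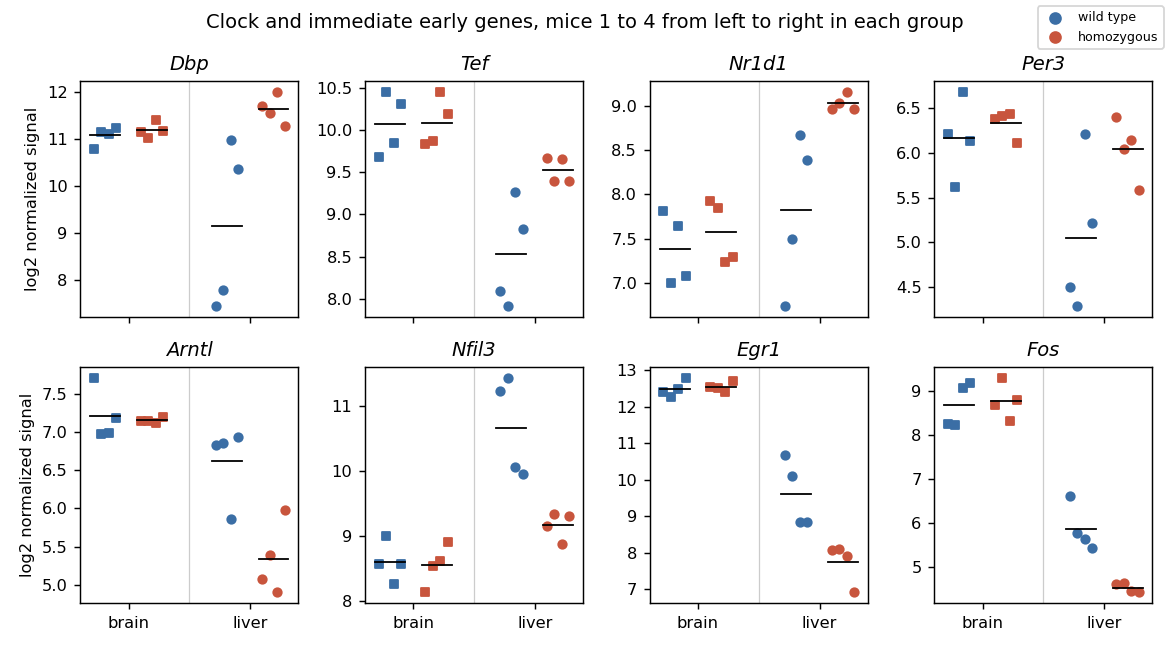
Log2 normalized signal of 6 clock genes and 2 immediate early genes in brain (squares) and liver (circles), wild type in blue and homozygous in red, mice 1 to 4 from left to right, with group means as black bars. Brain values of the genotypes overlap in all 8 panels, and wild-type livers 1 and 2 stand farthest from the homozygous livers for Dbp, Tef, Nfil3 and Egr1.

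Immediate early genes answer stimuli within minutes. Of 8 tested, 7 lay below 0 (48.4% of all probes did), 4 were lower at an unadjusted p under 0.05 (6.11%) and 0 passed, with a median of -1.09, from -1.04 in liver and 0.00 in brain. Egr1 in liver was 10.68, 10.09, 8.83 and 8.84 in wild-type mice and 8.07, 8.10, 7.92 and 6.91 in homozygous mice, with brain between 12.26 and 12.79. Its difference was -1.91 (SE 0.49, adjusted p = 0.244). The phosphatase Dusp1 read -1.19 (SE 0.28), Junb -1.54 (SE 0.48) and Fos -1.42 (SE 0.40), these 3 named after their values were seen. Fos was not well above background on any homozygous liver, which makes its liver side a bound of at least 2.28-fold lower. Zfp36, which destabilizes cytokine messages, was the highest at 0.54 (SE 0.29). Without the outlying mice the median was -0.46 with 3 at an unadjusted p under 0.05, Egr1 read -0.98, Junb -0.67, Fos -0.65 and Zfp36 0.17.

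Acute phase genes could be compared for 6 of 23 on the array. Their median was -1.04, from -1.16 in liver and -0.30 in brain, with 3 lower at an unadjusted p under 0.05 (6.11% of all probes) and 0 past the threshold. Lbp, the lipopolysaccharide binding protein, read -1.57 (SE 0.54). Its liver signal was 11.83 and 11.94 in wild-type mice 1 and 2, 9.37 and 9.25 in wild-type mice 3 and 4, and 8.81 to 9.32 in homozygous mice, so the last 6 overlapped. Cp, ceruloplasmin, was the highest at 0.02 (SE 0.16), with -0.52 in liver and -0.54 in brain. Without the outlying mice the median was -0.33 with 1 at an unadjusted p under 0.05, Lbp read -0.37 and Cp -0.03. Markers of neutrophils and monocytes, a list that shares Lcn2 with the acute phase list, were read as summed deposited signal. It ranged from 2112 to 34978 in wild-type livers and from 1487 to 1556 in homozygous livers. In brain the sums ranged from 1811 to 5532 in wild-type and from 1785 to 1843 in homozygous mice. Averaged over the markers tested in both tissues and centred over all mice, wild-type livers 1 to 4 read 1.39, 1.30, -0.09 and 0.88. Homozygous livers read -0.89, -0.63, -1.01 and -0.95. Of 12 such genes 9 were not detected in homozygous livers and 6 in wild-type livers. In brain 7 were not detected in homozygous mice and 5 in wild-type mice. In bulk tissue fewer cells of a type and less RNA per cell cannot be told apart, and the part of these cells in the result was not tested.

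Of 15 heat shock genes 13 lay below 0 (48.4% of all probes did), with 6 lower (6.11%) and 1 higher (5.75%) at an unadjusted p under 0.05 and a median of -0.29. Hsph1 was the lowest at -1.17 (SE 0.29), from -1.60 in liver and -0.43 in brain. Cryab, the highest at 0.81 (SE 0.18, adjusted p = 0.176), had its larger change in brain, where it read -0.99 against -0.17 in liver. Its brain signal was 9.77, 9.78, 9.48 and 9.58 in wild-type mice and 8.57, 8.94, 8.59 and 8.56 in homozygous mice, with no overlap, and the gene lies 0.23 Mb from Pts. Of 14 endoplasmic reticulum stress genes 13 lay below 0, against the same 48.4%, with 5 lower and 1 higher at an unadjusted p under 0.05 and a median of -0.39, from Dnajb9 at -1.22 (SE 0.33) to Herpud1 at 0.37 (SE 0.16). With the outlying mice left out these medians were -0.17 and -0.15, Hsph1 read -0.71, Cryab 0.54 and Dnajb9 -0.61.

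Of 11 ATF4 targets 6 lay above 0 (51.6% of all probes did) with a median of 0.01, from Chac1 at -0.98 (SE 0.44) to Vldlr at 1.19 (SE 0.40). Of 12 oxidative stress genes 6 did, with a median of 0.00, from Hmox1 at -0.99 (SE 0.35) to Gstm1 at 0.80 (SE 0.31). The medians of both lists were -0.20 and 0.08 without the outlying mice, where Chac1 read -0.22, Hmox1 -0.29 and Gstm1 0.22. Interferon genes had a median of -0.13 over 14 genes (-0.07 without the outlying mice) and at both ends of the list the liver minus brain values did not overlap between genotypes. Ifi27l2a read -1.26 (SE 0.26), with 7.04, 7.30, 7.29 and 7.13 in wild-type livers and 5.50, 6.03, 5.73 and 6.12 in homozygous livers. Rsad2, viperin, read 0.71 (SE 0.15). Neither passed (adjusted p = 0.162 and 0.164).

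Glucocorticoid-responsive genes and metallothioneins had a median of -0.17 over 15 genes. Their extremes were Mt2 at -2.35 (SE 1.01) and Plin4, given above. Mt2 in liver was 10.22 and 10.09 in wild-type mice 1 and 2 and 4.48 to 5.09 in the other 6, so its value came from 2 livers and was -0.09 without them. Fkbp5, a co-chaperone of the glucocorticoid receptor, was named after its values were seen. It read -0.92 in liver, -0.75 in brain and -0.17 (SE 0.21) for the difference, or 0.16 without the outlying mice. The calprotectin subunit S100a8 read -2.51 in liver, -1.99 in brain and -0.53 (SE 0.36) for the difference. With Lyz2 at -0.24 (SE 0.34) it makes up the tested neutrophil and monocyte markers, median -0.38. Averaged over both and centred over all mice, wild-type brains 1 and 2 read 1.96 and 1.60, against -0.85 to -0.33 in the other 6. Over the 15 genes of the glucocorticoid list the same 2 brains read 0.57 and 0.54, against -0.26 to -0.10. Without the outlying mice S100a8 read -1.24, Lyz2 -0.79 and their median was -1.01, with both at an unadjusted p under 0.05. Without the same mice the median of the glucocorticoid list was 0.11, on the other side of 0.

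Fatty acid oxidation genes and PPARA targets contained 1 of the 3 genes that passed, Mfsd2a. Of 18 tested, 16 lay above 0 (51.6% of all probes did) and 6 were higher at an unadjusted p under 0.05 (5.75%), Mfsd2a included. The median was 0.27, from 0.27 in liver and -0.01 in brain, and 0.24 without the outlying mice. Acot3, an acyl-CoA thioesterase, read 1.58 (SE 0.46), the coactivator Ppargc1a 0.91 (SE 0.23) and the lipase inhibitor Angptl4 0.80 (SE 0.25), all 3 named after their values were seen. Pdk4, which shuts pyruvate oxidation, was the lowest at -0.50 (SE 0.52), or -1.53 without the outlying mice. Liver signal of Pdk4 was 5.94, 5.80, 7.21 and 7.24 in wild-type mice and 5.58, 6.52, 5.49 and 6.17 in homozygous mice, which overlap.

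Of 27 oxidative phosphorylation genes 26 lay above 0 (51.6% of all probes did), with a median of 0.17, from 0.17 in liver and 0.00 in brain, and of 0.15 without the outlying mice. None passed by limma, 2 had an unadjusted p under 0.05 (11.9% of all probes), and 5 did not overlap between genotypes (6.19%). Sdhb, of succinate dehydrogenase, was the highest at 0.66 (SE 0.19, adjusted p = 0.270), or 0.40 without the outlying mice. Its liver signal was 10.02, 10.03, 10.73 and 10.44 in wild-type mice and 10.91, 10.99, 10.93 and 11.03 in homozygous mice, and its brain signal lay between 9.48 and 9.78. Ndufa1, of complex I, was the lowest at -0.05 (SE 0.21).

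Cholesterol synthesis and uptake had 14 of 16 genes below 0 (48.4% of all probes) and a median of -0.25, from -0.18 in liver and 0.12 in brain, with Sqle, squalene epoxidase, at -0.99 (SE 0.33) and Stard4 at 0.33 (SE 0.18). That median was -0.40 without the outlying mice, where Sqle read -0.62 and Stard4 0.19. Fatty acid and triglyceride synthesis had 13 of 17 above 0 (51.6%) and a median of 0.16, from Thrsp at -0.34 (SE 0.72) to the phosphatidate phosphatase Lpin2 at 1.08 (SE 0.35). Without the same mice that median was -0.12, on the other side of 0, Thrsp read -1.74 and Lpin2 0.41. Glucose metabolism had a median of 0.23 over 16 genes, or -0.02 without those mice. Hk2, a hexokinase, read -0.92 (SE 0.24) and fell in liver by 0.89 (SE 0.10, adjusted p = 0.00968), with 5.81, 5.96, 5.70 and 5.66 in wild-type livers and 4.94, 4.93, 4.96 and 4.75 in homozygous livers. Aldoa, an aldolase, was the highest at 0.99 (SE 0.38), or 0.18 without those mice.

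Autophagy genes had a median of 0.09 over 18 (0.16 without the outlying mice), and Gabarapl1, of autophagosome formation, read 1.00 (SE 0.24, adjusted p = 0.216). Wild-type livers gave 10.68, 10.65, 11.58 and 10.89 and homozygous livers 12.25, 11.83, 12.06 and 12.07, which did not overlap, while Lamp2 was the lowest at -0.34 (SE 0.23). Cell proliferation genes had a median of -0.21 over 9, from Mcm4 at -0.59 (SE 0.21) to Tyms at 0.05 (SE 0.22), the latter -0.24 without the outlying mice.

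Markers of other cells were read beside these lists. Macrophage and microglia markers had 10 of 11 below 0 (48.4% of all probes) and a median of -0.43, or -0.61 without the outlying mice. The summed deposited signal of the 16 on the array was 3834 to 4719 in wild-type livers and 2831 to 3151 in homozygous livers, with no overlap. In brain it was 5174 to 6127 against 4537 to 5239. C1qc, a complement subunit, was the lowest at -0.83 (SE 0.22), with 8.08, 8.21, 7.95 and 8.11 in wild-type livers and 6.73, 7.61, 7.08 and 6.74 in homozygous livers. Ctss was the highest at 0.13 (SE 0.16). The part of macrophage number in the other lists was not tested.

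Endothelial markers had a median of 0.12 over 8 genes. Tek, the angiopoietin receptor, read -0.52 (SE 0.18). The von Willebrand factor gene Vwf read 0.76 (SE 0.26), from 0.05 in liver and -0.71 in brain. Stellate cell and fibroblast markers had a median of -0.02 over 6, with the collagen gene Col1a1 at -1.46 (SE 0.36) and Reln at 0.43 (SE 0.31). Astrocyte markers had a median of -0.08 over 4, with Gja1 at -0.999 (SE 0.38) and Aqp4 at 0.32 (SE 0.33). Blood markers had 0.27 over 3, with Hba-a1 at 0.62 (SE 0.20) and Slc4a1 at 0.20 (SE 0.27). Hepatocyte markers had 0.06 over 3, with Apoa2 at 0.18 (SE 0.21) and Apoa1 at -0.04 (SE 0.18). No lymphocyte marker was tested in both tissues, neurons had 2 (Syt1 at 0.19 and Rbfox3 at 0.24) and oligodendrocytes 1 (Cnp at -0.13). Without the outlying mice the medians were 0.06 for endothelium, -0.22 for stellate cells and fibroblasts, -0.11 for astrocytes, 0.0033 for blood, 0.31 for neurons and -0.22 for oligodendrocytes. The genes read 0.43 for Vwf, -0.17 for Reln, -0.20 for Gja1, 0.66 for Aqp4 and -0.08 for Slc4a1. Apoa2 read 0.32, Apoa1 -0.17, Syt1 0.55, Rbfox3 0.06 and Cnp -0.22 without them.

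**Figure D5:**
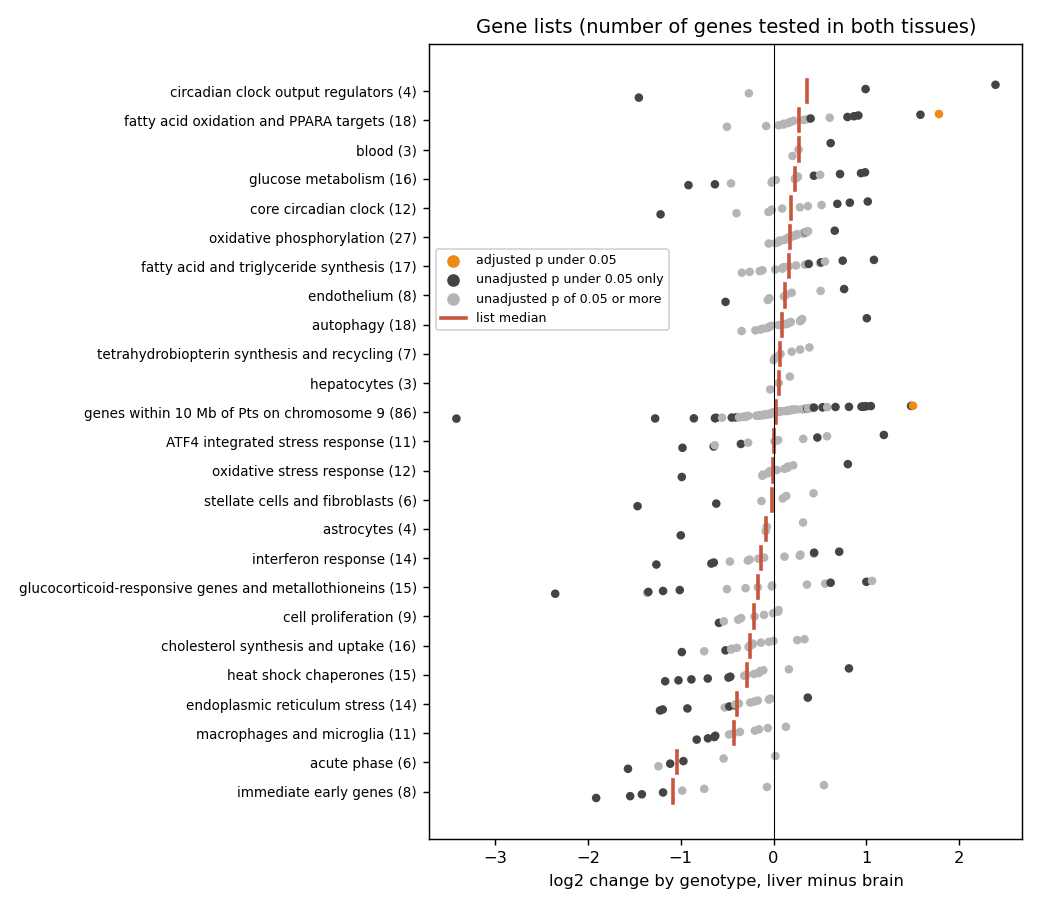
Difference of the genotype effect, liver minus brain on the log2 scale, for each tested gene of the lists with at least 3 genes, with list medians as red bars. Black points have an unadjusted p under 0.05 and orange points passed the adjusted threshold (Fxyd6 and Mfsd2a). Medians run from -1.09 for immediate early genes to 0.36 for clock output genes.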

How the data were processed

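RNA of 8 mice was measured in brain and liver on single-colour Illumina bead arrays from biotin-labelled cRNA, per the labels' protocols. The deposited table holds bead summary intensity values that are not normalized between arrays, each with a deposited detection p-value against negative control beads. A second deposited table holds intensity values that the authors normalized over all arrays by a method not given in the sources used here. GenomeStudio 2011.1 is named in the submitters' processing notes. Symbols came from the platform annotation and were updated through RefSeq (GRCm38.p6), with 23971 of 25697 probes matched.

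Here the signals were background-corrected with nec (limma 3.58.1, R 4.3.3, offset 16), normalized by quantiles over the 8 arrays of a tissue, then log2-transformed. Values and changes are on this scale, which understates changes near background. Summed marker signals are instead sums of the deposited intensities, without background correction or normalization. The 75th percentile of those intensities ran from 241 to 343 over the brain arrays and from 177 to 214 over the liver arrays. Each mouse's liver minus brain value was compared between genotypes with lmFit and eBayes, with Benjamini-Hochberg adjustment over 10492 probes at 0.05, and each tissue was also fitted alone. Mouse identifiers give the pairing. Deviations of the 2 arrays of a mouse correlated between -0.0020 and 0.13. Replicate numbers across genotypes name different animals. Lists were read with 1 probe a gene, chosen as the brightest on average, and ranked genes with the probe of smallest p. A probe above background on no array of a group is given as a bound, from the lowest signal detected on those arrays. Precision is limited by 4 mice a genotype.

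The comparison and the gene lists were chosen with earlier results of these data known. The text names every probe that passed, the next in rank up to 20 genes, all probes of Pts, Tmem25 and Alg9, the genes near Pts that passed in a tissue, and the lowest and highest gene of each list. Others are said to be named after their values were seen. Alternatives covered normalization, background, filter, variance, pairing, brightness of brain arrays and single mice. The method was tested on simulated data. Array slides are not given, so no fit by slide was made.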

Additional observations from a re-analysis of the deposited data

Results flagged for a closer look

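In 3 of 56 groups of 4 mice tested for the named probes, 1 mouse lay far from the other 3, where chance gives about 1 in 20. All 3 were homozygous mouse 3. Its liver minus brain value was -3.02 for Mcam, against -2.56 to -2.49 in the other homozygous mice. For Rgs16 it was 3.10, against 0.82 to 1.14, and for the Alg9 probe not well above background in any homozygous brain it was -0.34, against 0.08 to 0.13.

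The genotype effect itself differed between tissues by the test of the difference for Fxyd6 (1.50), Mfsd2a (1.78) and Syne4 (-1.67), which are described above.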

How the results depend on the processing

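The count of 3 probes stayed at 3 with quantile normalization over all 16 arrays, scaling to the 75th percentile, an offset of 50, probes detected on all 16 arrays, trend and robust variance, array weights, 1 probe a gene, and brain brightness as a block, and was 2 with no background correction. With an offset of 50, 2 of the 3 were the same genes, and with no background correction 1 was. The count was 8 with no replicate block, where the arrays of a mouse were not paired, and 8 with mouse as a random block. It was 0 with the replicate number as a block across genotypes (smallest adjusted p = 0.0613), although those numbers pair no animals, 0 with the authors' normalized values (0.0524) and 0 with no detection filter (25697 probes, 0.0616). At an unadjusted p under 0.05 those 3 settings gave 1201, 1208 and 2261. Leaving out 1 mouse gave 0 to 39, and leaving out wild-type mice 1 and 2 gave 1. Within the mice with brighter or dimmer brain arrays, settings chosen after seeing the data, it was 0 and 0, with 586 and 960 at an unadjusted p under 0.05.

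In liver alone the count of 108 became 30 with probes detected on all liver arrays and 32 with the replicate number as a block, and ran from 9 to 942 when 1 mouse was left out (942 without wild-type mouse 3). In brain alone the count of 2 became 1 with the authors' values, 0 with probes detected on all brain arrays (333 at an unadjusted p under 0.05), 1 with the replicate number as a block and 2 to 4 when 1 mouse was left out. The cause of these moves was not tested, except that filters change the number of probes tested.

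Signs turned for a few probes near Pts, none past the threshold. The dimmer Pts probe (0.21) ranged from -0.0864 to 0.407 when 1 mouse was left out, below 0 only when that was wild-type mouse 2, and read -0.0712 when wild-type mice 1 and 2 were dropped together. The Alg9 probe that passed in both tissues read -0.34 with quantile over all 16 arrays, -0.17 with the authors' values, -7.97e-05 with no background correction and -0.20 within the dimmer brains. Sorl1 read -0.13 and Dnaja4 0.0034 with no background correction, and Atm -0.0033 with the authors' values and -0.40 within the dimmer brains. Over 25 settings Fxyd6 read 0.65 to 1.70 and passed in 14, Mfsd2a read 1.34 to 1.88 and passed in 13, and Syne4 read -1.82 to -0.72 and passed in 12. A fit by array slide was not run.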

Other observations

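Some probes could not enter the comparison because a gene was detected in only 1 tissue. Of the 108 probes that passed in liver, 31 were not tested in brain, so nothing is said of their difference between tissues.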
